A study of Mus musculus with 20 samples.

Results

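Type I interferon-stimulated genes were followed in the prefrontal cortex of socially stressed male mice. The set held 38 genes chosen by symbol, and 37 of them had a probe among the 27384 genes named on the array. No probe carried the symbol Ifi27. The brightest probe of each gene was used. A probe is called dim where it was not well above background in either colour.

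Swiss Webster males, moved to single cages when 12 weeks old, were placed after a period of habituation as intruders into cages of group-housed males, and unstressed single-housed siblings served as controls. RNA from a slice of the frontal pole was pooled in equal amounts from 3 mice per pool, and a stress pool was hybridised with a control pool of siblings on a dual-colour Agilent array. The 4 comparisons were acute stress (a single encounter, 24 hours earlier), encounters repeated over 8 days or over 13 days, and 13 days of encounters followed by 5 days of rest (recovery), each against control mice of its own. Each comparison had 3 pairs of pools and 5 arrays, since pools 2 and 3 were hybridised again with the dyes swapped and pool 1 has 1 array with stress in Cy5. Values below are log2 ratios of stress over control, with n = 3 pools per time point. An SE is that of the limma fit, which shares the spread over time points, and adjusted p-values are limma's with Benjamini-Hochberg adjustment over 39429 probes. A gene was called where its adjusted p was under 0.05 and its log2 ratio exceeded 0.5 in size. Per array, 70.5% to 74.3% of the probes exceeded background clearly and 0 spots were saturated. The cortical neuron markers Snap25, Syt1, Rbfox3, Slc17a7, Gad1 and Tbr1 were well above background on all arrays. The number of pools limits the precision.

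Type I interferons are secreted when a cell senses viral or misplaced nucleic acid. They bind a receptor of the subunits Ifnar1 and Ifnar2, whose kinases Jak1 and Tyk2 activate Stat2, which joins Irf9 in a complex that binds a promoter element named the interferon-stimulated response element. The genes it switches on sense nucleic acid, block translation or viral entry, and modify proteins with Isg15, and in brain they are known from neurons, microglia, astrocytes and vessel cells after infection or injury.

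The response element is shown first, because it is what these genes are known to share. Its core, GAAA, any 2 bases and GAAA again, and the same on the other strand, TTTC, any 2 bases and TTTC, were searched, overlaps included, in the RefSeq promoter windows of build GRCm38.p6, which run from 250 bases before to 50 after a gene start. Of 26 members with a window, 15 held a match (57.7%), against 1079 of 27025 genes (3.99%). A match is a description of the letters and was not tested for binding. The windows of 10 of these genes are given 5′ to 3′ on the gene's strand, with the matches in capitals. Isg15 holds 3 overlapping matches, while Oas1a and Bst2 hold 2 that overlap. Ifit3 holds 2 matches, of which 1 lies in the stretch shown.
Isg15 (chr4:156200855-156200916, minus): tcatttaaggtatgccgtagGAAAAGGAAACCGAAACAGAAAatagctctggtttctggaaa
Oas1a (chr5:120907526-120907565, minus): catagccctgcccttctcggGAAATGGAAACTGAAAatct
Bst2 (chr8:71537567-71537622, minus): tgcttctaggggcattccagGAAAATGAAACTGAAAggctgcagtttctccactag
Ifit1 (chr19:34640765-34640833, plus): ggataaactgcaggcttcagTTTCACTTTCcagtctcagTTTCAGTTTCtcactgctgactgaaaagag
Ifit3 (chr19:34583387-34583436, plus): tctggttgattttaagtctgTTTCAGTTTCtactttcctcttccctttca
Rsad2 (chr12:26456543-26456592, minus): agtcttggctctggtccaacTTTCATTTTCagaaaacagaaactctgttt
Cxcl10 (chr5:92349073-92349122, minus): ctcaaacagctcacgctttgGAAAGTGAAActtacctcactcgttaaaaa
Mndal (chr1:173880194-173880243, minus): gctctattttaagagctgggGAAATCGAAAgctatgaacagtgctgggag
Ifitm3 (chr7:141010716-141010745, minus): cagGAAAAGGAAActtctgaGAAACCGAAA
Ifih1 (chr2:62646214-62646243, minus): aaagtctggagaagagaatcGAAACAGAAA
Matches were also found in Stat2, Ddx58, Oas3, Eif2ak2 and Ifitm2. These letters were not in the windows of Irf9, Irf7, Ifit2, Oasl1, Oasl2, Cmpk2, Samd9l, Xaf1, Ifi35, Ifi44 and Ifitm1. Dhx58, Zbp1, Ifi204, Usp18, Oas1b, Oas2, Mx1, Mx2, Parp14, Ifi27, Ly6e and Rtp4 were not matched to a window.

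No interferon-stimulated gene was called as changed by social stress at any time point by limma. The count was 0 of 37 after acute stress, where 0.00507% of all probes were called, 0 after 8 days (0.00254% of probes), 0 after 13 days (0.0279%) and 0 in recovery (0%). At an unadjusted p under 0.05 there was 1 member after acute stress, against 6.99% of all genes, 2 after 8 days (4.19%), 4 after 13 days (9.05%) and 4 in recovery (3.95%). The lowest adjusted p of a member was 0.737, 0.693, 0.305 and 0.988 at the 4 time points, in that order.

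The mean ratios nevertheless lay mostly on one side of 0 at each time point. The median over the 37 members was -0.083 with acute stress, 0.14 at 8 days, 0.063 at 13 days and -0.17 in recovery, while the median over all genes lay between 0.0018 and 0.0053. After acute stress 18 of 37 members were lower in 3 of 3 pools (14.2% of all genes) and 1 was higher in 3 of 3 (14.8%). After 8 days 7 were higher in 3 of 3 pools (11.7%) and 0 were lower (10.9%), and after 13 days 8 were higher (18.3%) and 1 was lower (15.6%). In recovery 17 were lower in 3 of 3 pools (11.3%) and 0 were higher (12.1%). In a pool of tissue RNA, a change in the number of cells that express a gene and a change of RNA per cell cannot be told apart.

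3 pairs of pools carried most of these values. In pool 2 of 8 days the members had a median of 0.43, and 28 of 37 lay above 0.2, a size reached by 2.46% of all genes. In pool 2 of 13 days the median was 0.30, and 23 of 37 lay above 0.2 (2.5% of all genes). In pool 3 of recovery the median was -0.40, and 29 of 37 lay under -0.2 (1.54%). These pools and the limit of 0.2 were singled out after their values were seen, and the counts are a description. In the other 9 pairs of pools the medians ran between -0.15 and 0.06, with 12 of 37 members under -0.2 in pool 3 of acute stress (2.1% of all genes) and in pool 1 of 8 days (5.92%), 9 in pool 1 of 13 days (7.27%) and 8 in pool 1 of acute stress (7.12%). Without pool 2, the median of the members was -0.039 after 8 days and -0.067 after 13 days, and without pool 3 it was -0.046 in recovery.

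**Figure D1:**
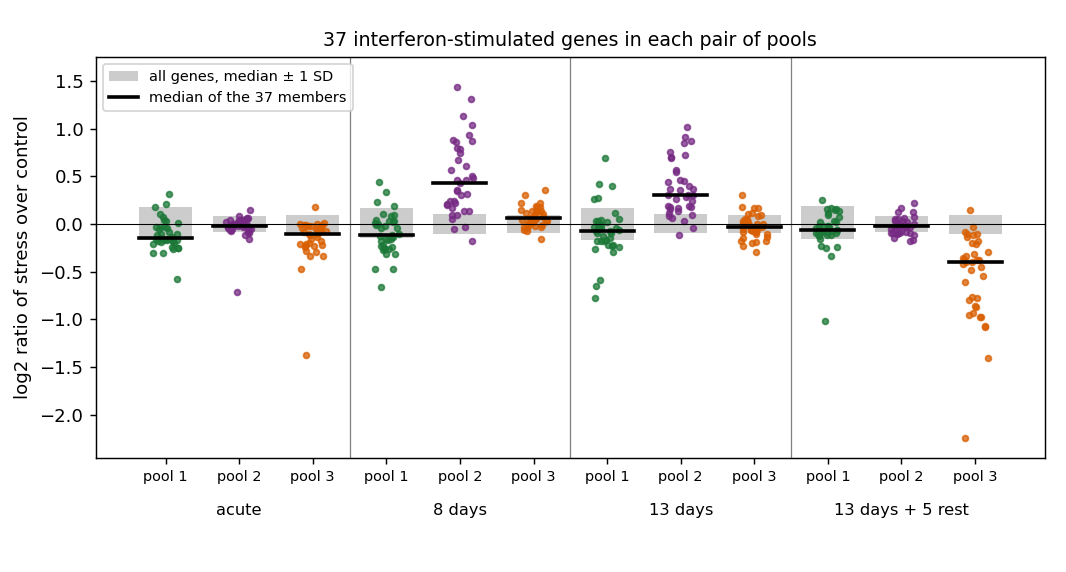
Stress over control as a log2 ratio (vertical axis) for the 37 members in each pair of pools (horizontal axis), 1 point per gene, with the median of the members as a black line and the median ± 1 SD of all genes in grey. Pool 2 of 8 days (median 0.43), pool 2 of 13 days (0.30) and pool 3 of recovery (-0.40) stand apart from the other 9.

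Most members kept their direction in the 3 pairs when the dyes were exchanged. In pool 2 of 8 days 29 of 37 members were higher in stress on both the original and the swapped array, against 21.1% of all genes. In pool 2 of 13 days 30 of 37 were higher on both (19.2%), and in pool 3 of recovery 34 of 37 were lower on both (20.5%). Across members, the 2 arrays of these pairs had r = 0.85, 0.57 and 0.92, while across all genes r was -0.099, -0.34 and -0.18. These correlations are over genes of the same 2 RNA pools. The 3 pairs were picked by the mean of these same arrays, so the counts and the correlations are given as a description. The original and the swapped arrays lay on different slides. Pool number went with slide and scan day at all 4 time points, with pool 1 on slide 1, pool 2 on slides 3 and 2, and pool 3 on slides 5 and 4, scanned on the second day. Both high pools 2 were thus on the same 2 slides, which also held pool 2 of acute stress and of recovery, with medians of the members of -0.015 and -0.019. With the slide as a block, the medians were -0.072 for acute stress, 0.17 for 8 days, 0.12 for 13 days and -0.20 for recovery.

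**Figure D2:**
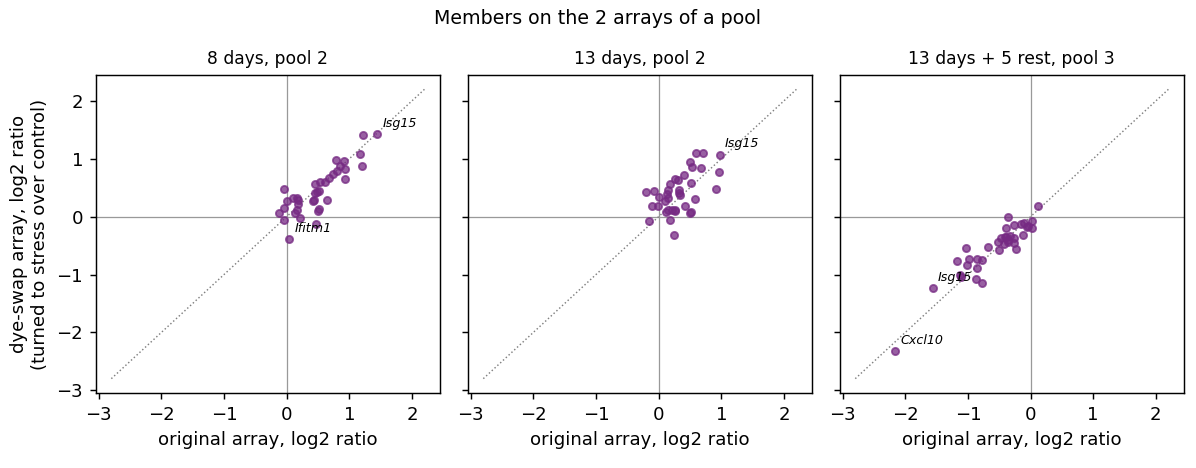
Log2 ratio of the 37 members on the original array (horizontal axis) and on the dye-swap array turned to stress over control (vertical axis), 1 panel for each of the 3 pairs of pools, with the dotted line marking equal values. In the first and second panels 29 and 30 of 37 genes are above 0 on both arrays, and in the third 34 are below 0 on both.

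In the recovery pair the control pool was high, and some members were low in the stress pool. Each pool was also read in its own colour, as the log2 level over the median of that colour on the 20 arrays, a scale on which differences between arrays remain. The stress pool 2 of 8 days had a median over the members of 0.39, with 27 of 37 above 0.2 (4.46% of all genes), against -0.018 in its control pool. The stress pool 2 of 13 days had a median of 0.24, with 21 of 37 above 0.2 (4.6%), against -0.072 in its control pool. In recovery pool 3 the stress pool had a median of -0.093, with 2 of 37 above 0.2 (8.17%) and 11 of 37 under -0.2 (7.43%). The control pool of that pair had a median of 0.33, with 26 of 37 above 0.2 (8.56%) and 0 under -0.2 (7.61%). The other control pool with a raised median was that of acute pool 3, at 0.17 with 16 of 37 above 0.2 (9.47%), beside 0.062 with 10 of 37 (8.47%) in its stress pool. Of the 24 pools, stress pool 2 of 8 days was the highest for 13 members, control pool 3 of recovery for 13, stress pool 2 of 13 days for 1 and another pool for 10. For 10 of 37 members these 3 pools were the 3 highest, as they were for 0.0621% of all genes. Stress and control pools were thus both among the raised ones. The 3 pools were picked from the same data, and these counts are a description.

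**Figure D3:**
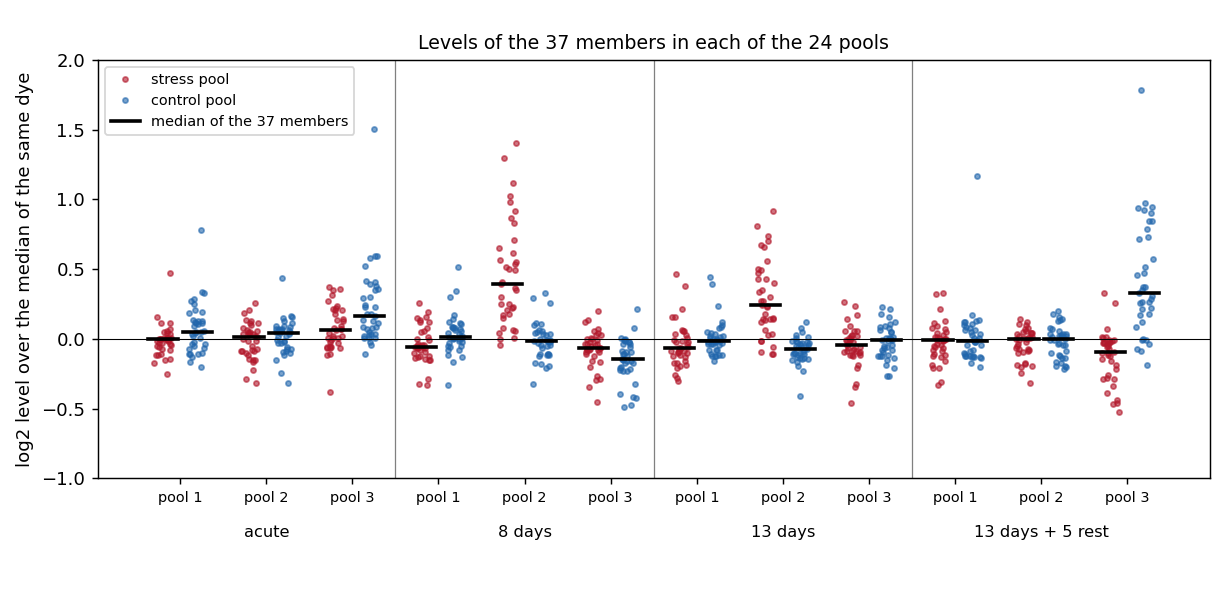
Log2 level of the 37 members in each of the 24 pools over the median of the same dye (vertical axis), with the stress pool in red to the left of its control pool in blue (horizontal axis) and the median of the members as a black line. The stress pools 2 of 8 days (median 0.39) and 13 days (0.24) and the control pool 3 of recovery (0.33) are the highest.

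Isg15, a ubiquitin-like protein that is attached to other proteins, had the widest range of the set over the 12 pairs. Its probe lies on chromosome 4 (155573649 to 155573708, mm9, as the array files give it). Its log2 ratios in pools 1, 2 and 3 were -0.31, 0.082 and -0.24 with acute stress, -0.26, 1.44 and 0.15 at 8 days, -0.21, 1.02 and -0.083 after 13 days, and -0.16, -0.089 and -1.40 in recovery. The mean was 0.44 after 8 days (SE 0.31, adjusted p = 0.998), 0.24 after 13 days (SE 0.31, adjusted p = 0.872) and -0.55 in recovery (SE 0.31, adjusted p = 0.988). Without pool 2 it was -0.056 after 8 days and -0.15 after 13 days. Read in single colours, Isg15 stood 1.41 above the median of its dye in stress pool 2 of 8 days, 0.91 above it in stress pool 2 of 13 days and 0.94 above it in control pool 3 of recovery. The next of the 24 pools was at 0.21. A second, also bright probe for Isg15 had smaller ratios of the same direction, at 0.65 in pool 2 of 8 days, 0.36 in pool 2 of 13 days and -0.74 in pool 3 of recovery. Usp18, the protease that removes Isg15 and also restrains the interferon receptor, had -0.32, 0.88 and 0.14 after 8 days, -0.17, 0.56 and -0.10 after 13 days, and -0.23, 0.12 and -0.97 in recovery.

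The signalling genes had smaller ratios. Irf9, the DNA-binding part of the complex, had -0.13, 0.57 and 0.031 after 8 days, 0.022, 0.35 and 0.091 after 13 days, and -0.079, -0.081 and -0.20 in recovery. Irf7, the factor that amplifies interferon production, had -0.13, 0.51 and -0.041 after 8 days, 0.032, 0.18 and -0.084 after 13 days, and -0.094, -0.033 and -0.48 in recovery (mean -0.20, SE 0.11, adjusted p = 0.988), where it was lower in 3 of 3 pools. Stat2 was higher in 3 of 3 pools after acute stress (0.030, 0.037 and 0.18), and in recovery it had 0.25, 0.052 and -0.21. Its mean was between 0.031 and 0.095 at the 4 time points.

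Among the sensors of nucleic acid, which detect RNA or DNA inside the cell, the ratios were small. Ifih1, a sensor of long double-stranded RNA, had -0.24, 0.35 and 0.072 after 8 days and -0.29, 0.26 and 0.0027 after 13 days, and 0.035, -0.0061 and -0.30 in recovery, so that pools of a time point went in opposite directions. After acute stress it had -0.17, 0.0063 and 0.011. Its mean after 13 days was -0.010 (SE 0.11) and turned to 0.13 without pool 1. For Ddx58, which detects RNA ends, the brightest probe was lower in 3 of 3 pools after acute stress (-0.18, -0.055 and -0.033). That probe was higher in 3 of 3 after 8 days (0.040, 0.24 and 0.057). The other Ddx58 probe, well above background on 18 arrays, did neither. It had 0.22, 0.068 and -0.071 after acute stress, and -0.055, 0.16 and 0.073 after 8 days. Zbp1, a sensor of left-handed nucleic acid, had the smallest mean of 13 days, -0.16 (SE 0.099), with -0.26, 0.085 and -0.30 in the pools, and after 8 days it had -0.26, 0.24 and 0.18. Ifi204, a DNA sensor, had -0.31, -0.085 and -0.21 after acute stress and -0.15, 0.46 and 0.060 after 8 days. Dhx58, a regulator of the RNA sensors, had -0.27, 0.13 and -0.012 after 8 days, with a mean of -0.051, the smallest of that time point, and 0.16, -0.018 and -0.18 in recovery.

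Mndal, a nuclear protein of the interferon-inducible Ifi200 family, was well above background on 4 of 5 arrays with acute stress, 5 at 8 days, 4 at 13 days and 3 in recovery. Its log2 ratios were -0.046, 0.035 and -0.037 with acute stress, -0.26, 0.098 and 0.18 at 8 days, 0.42, 0.37 and -0.20 after 13 days, and 0.17, 0.022 and -0.14 in recovery. After 13 days 2 of 3 pools were higher, with a mean of 0.20 (SE 0.11, adjusted p = 0.627), and the alternatives gave 0.053 to 0.58. Mndal and Ifih1 thus had pools on both sides of 0 at each of the 4 time points.

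The Ifit genes encode proteins that bind viral RNA and block its translation, and the 3 measured here lie near each other on chromosome 19. Ifit1 had -0.11, 0.94 and 0.0099 after 8 days, -0.24, 0.70 and -0.072 after 13 days, and -0.022, -0.16 and -1.07 in recovery. Ifit3 had -0.020, 0.87 and -0.061 after 8 days, 0.11, 0.55 and 0.0081 after 13 days, and -0.11, -0.11 and -0.97 in recovery. In recovery both were lower in 3 of 3 pools, with means of -0.42 for Ifit1 (SE 0.22, adjusted p = 0.988) and -0.40 for Ifit3 (SE 0.18, adjusted p = 0.988), of which -0.092 and -0.11 were left without pool 3. Ifit2 stayed smaller than its neighbours, at 0.098 in pool 2 of 8 days, 0.17 in pool 2 of 13 days and -0.36 in pool 3 of recovery. After acute stress Ifit1 had -0.16, 0.037 and -0.47.

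The Oas genes encode synthetases that sense double-stranded RNA and activate RNase L, and the Oasl genes are related. Oas1a had -0.22, 1.13 and 0.12 after 8 days, -0.23, 0.87 and -0.057 after 13 days, and -0.035, -0.096 and -0.93 in recovery (mean -0.35, SE 0.24, adjusted p = 0.988). A second Oas1a probe, also well above background on all arrays, was smaller in pool 2 and of the other sign in pool 1. It had 0.20, 0.30 and 0.038 after 8 days, 0.23, 0.29 and -0.00355 after 13 days, and 0.030, -0.16 and -0.43 in recovery. Oasl2 had -0.039, 1.04 and 0.11 after 8 days, -0.13, 0.69 and -0.18 after 13 days, and 0.12, -0.096 and -0.96 in recovery. Oas2 was higher in 3 of 3 pools after 13 days (0.054, 0.75 and 0.0015, mean 0.27, SE 0.16, adjusted p = 0.655), of which 2 lay close to 0. Oasl1 had -0.23, 0.79 and 0.14 after 8 days, and -0.18, -0.039 and -0.33 after acute stress. Oas1b did not share the pattern, at 0.046, -0.073 and -0.024 after acute stress, -0.011, -0.028 and 0.054 after 8 days, -0.039, -0.12 and -0.10 after 13 days (mean -0.087, SE 0.039, adjusted p = 0.559) and 0.024, -0.0085 and -0.026 in recovery. Oas3 was dim on all arrays but 1, and no ratio is given for it.

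Rsad2, which encodes viperin, an enzyme that makes a chain-ending nucleotide against viruses, had 0.035, 0.86 and 0.14 after 8 days (mean 0.35, SE 0.21, adjusted p = 0.998), where it was higher in 3 of 3 pools. It had -0.015, 0.85 and 0.30 after 13 days, and -1.02, 0.22 and -0.79 in recovery. In recovery its low ratio in pool 1 also came with a high control pool, which stood 1.17 above the median of its dye, against 0.32 in the stress pool. Cmpk2 is a nucleotide kinase gene next to Rsad2 on chromosome 12, and its brightest probe did not follow Rsad2. That probe had 0.019, 0.14 and -0.073 after 8 days, 0.045, 0.037 and 0.052 after 13 days, and -0.12, -0.095 and -0.12 in recovery. The other Cmpk2 probe was likewise well above background on all arrays. It had means of opposite sign after 8 days (-0.19) and 13 days (-0.23). In recovery it had -0.83, -0.15 and 0.025 (mean -0.32), low in pool 1 like Rsad2 but not in pool 3. Oas1b, Ddx58, Zbp1, Xaf1, Ifih1 and Cxcl10 also had a further probe whose mean differed in sign at some time point. Those of Zbp1, Xaf1, Ifih1 and Cxcl10 were dim on most arrays.

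Of the remaining antiviral effectors, Ifi44 had the widest spread over the 12 pairs. It had -0.47, 0.74 and 0.070 after 8 days, -0.77, 0.73 and -0.057 after 13 days, and -0.24, 0.035 and -1.08 in recovery. Mx2, a dynamin-like GTPase that traps viral particles, had 0.48 in pool 2 of 8 days, 0.47 in pool 2 of 13 days, and -0.016, -0.027 and -0.87 in recovery. Parp14, an ADP-ribosyltransferase, was lower in 3 of 3 pools after acute stress (-0.17, -0.12 and -0.14) and in recovery (-0.095, -0.028 and -0.54), with 0.47 and 0.39 in the pools 2 of 8 and 13 days. Xaf1, Samd9l, Ifi35 and the kinase Eif2ak2, which stops translation on sensing double-stranded RNA, lay between 0.21 and 0.43 in pool 2 of 8 days, between 0.16 and 0.31 in pool 2 of 13 days, and between -0.40 and -0.32 in pool 3 of recovery. After acute stress Xaf1, a partner of an inhibitor of apoptosis, had -0.029, 0.065 and -0.025. It had 0.086, 0.43 and -0.018 after 8 days and -0.091, 0.30 and -0.18 after 13 days. Ifi35 had -0.16, 0.21 and -0.029 after 8 days, with a mean of 0.0068 (SE 0.087). Mx1 was dim on 16 of 20 arrays, and no ratio is given for it.

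Ifitm3, a membrane protein that blocks the entry of viruses into cells, was the member whose 3 pools of 8 days lay closest together among those with a large mean. It had 0.23, 0.61 and 0.30 after 8 days (mean 0.38, 1.30-fold, SE 0.089, adjusted p = 0.693) and 0.27, 0.44 and 0.029 after 13 days (mean 0.25, SE 0.089, adjusted p = 0.457), and it was lower in 3 of 3 pools after acute stress (-0.083, -0.052 and -0.23) and in recovery (-0.074, -0.018 and -0.40). Without pool 2 its mean of 8 days was 0.27. When all 20 arrays were fitted with slides as blocks, its adjusted p was 0.000756 after 8 days at a log2 ratio of 0.41, under the size limit for a call, and that fit took the arrays of a pool as independent. With a dye effect in the fit its adjusted p was 0.0495 at 0.40, with the arrays of a pool again taken as independent.

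Ifitm1 and Ifitm2, close relatives on the same stretch of chromosome 7, had a different order of pools. Ifitm1 had 0.33, -0.18 and 0.19 after 8 days and 0.70, 0.29 and 0.17 after 13 days, where it was higher in 3 of 3 pools (mean 0.39, 1.31-fold, SE 0.10, adjusted p = 0.305). With the original arrays only, its ratio of 13 days was 0.52 with an adjusted p of 0.00233 in limma, past the threshold. Those arrays all have stress in Cy5, so that stress and dye cannot be told apart in that setting. Ifitm2 had 0.44, -0.049 and 0.22 after 8 days and 0.40, 0.059 and 0.18 after 13 days (mean 0.21, SE 0.084, adjusted p = 0.507). Pool 1, the highest for both, has no swapped array among the samples used here, so that stress and dye cannot be told apart in it. Ly6e, a surface protein that hinders viral entry, was likewise highest in pool 1, with 0.31, 0.035 and -0.077 after acute stress. After acute stress Ifitm1 had 0.21, 0.026 and -0.073, and Ifitm2 had 0.18, -0.013 and -0.10. In recovery Ifitm1 had 0.017, 0.13 and -0.11, and Ifitm2 had 0.074, 0.071 and -0.083. The probes of Ifitm genes can bind RNA of their close relatives.

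**Figure D4:**
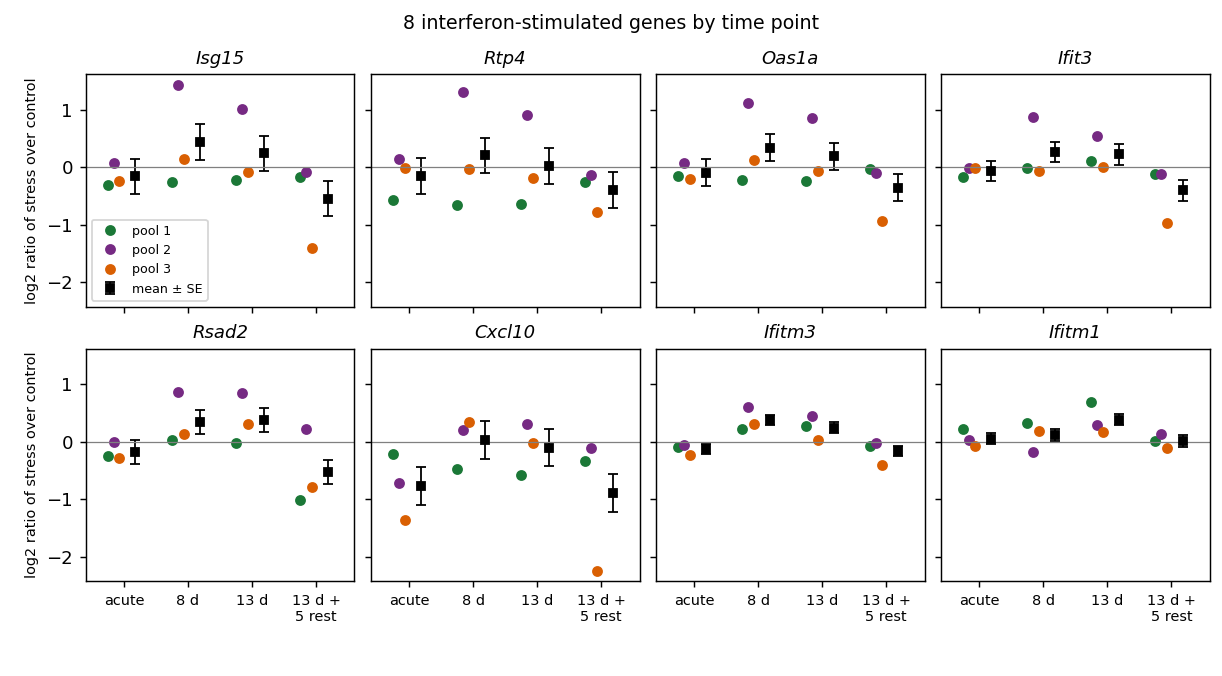
Stress over control as a log2 ratio (vertical axis) for 8 members at the 4 time points (horizontal axis), with the 3 pools as coloured points and the mean ± SE of the limma fit (n = 3 pools) as black squares. By their brightest probes, Isg15, Rtp4, Oas1a, Ifit3 and Rsad2 are high in pool 2 after 8 and 13 days. The 3 pools of Ifitm3 after 8 days lie between 0.23 and 0.61.

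Cxcl10, a chemokine that attracts T cells, had the smallest means of the set after acute stress and in recovery. It had -0.21, -0.72 and -1.37 after acute stress (mean -0.77, 0.59-fold, SE 0.33, unadjusted p = 0.036, adjusted p = 0.737) and -0.33, -0.10 and -2.25 in recovery (mean -0.89, 0.54-fold, SE 0.33, unadjusted p = 0.0172, adjusted p = 0.988), lower in 3 of 3 pools at both. After 8 days it had -0.47, 0.20 and 0.35, and after 13 days -0.58, 0.30 and -0.028. The lowest ratios came with high control pools. In acute pool 3 the stress pool stood 0.13 above the median of its dye and the control pool 1.5, and in recovery pool 3 the stress pool was at -0.47 and the control pool at 1.78. Its other probe, well above background on 2 of 20 arrays, had means of 0.017 after acute stress and 0.033 in recovery. The size of its acute mean ran from -1.71 to -0.37 over the alternatives.

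Rtp4, a chaperone of membrane receptors, had -0.66, 1.31 and -0.028 after 8 days, -0.65, 0.91 and -0.19 after 13 days, and -0.25, -0.14 and -0.78 in recovery (mean -0.39, SE 0.31, adjusted p = 0.988). Its pools 1 were thus low where its pools 2 were high. Bst2, which encodes tetherin and holds budding virus at the cell surface, had -0.31, 0.67 and 0.14 after 8 days, but -0.17, 0.11 and -0.23 after 13 days, and -0.12, -0.026 and -0.61 in recovery (mean -0.25, SE 0.14, adjusted p = 0.988). After acute stress it had -0.26, -0.060 and -0.23, lower in 3 of 3 pools.

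**Figure D5:**
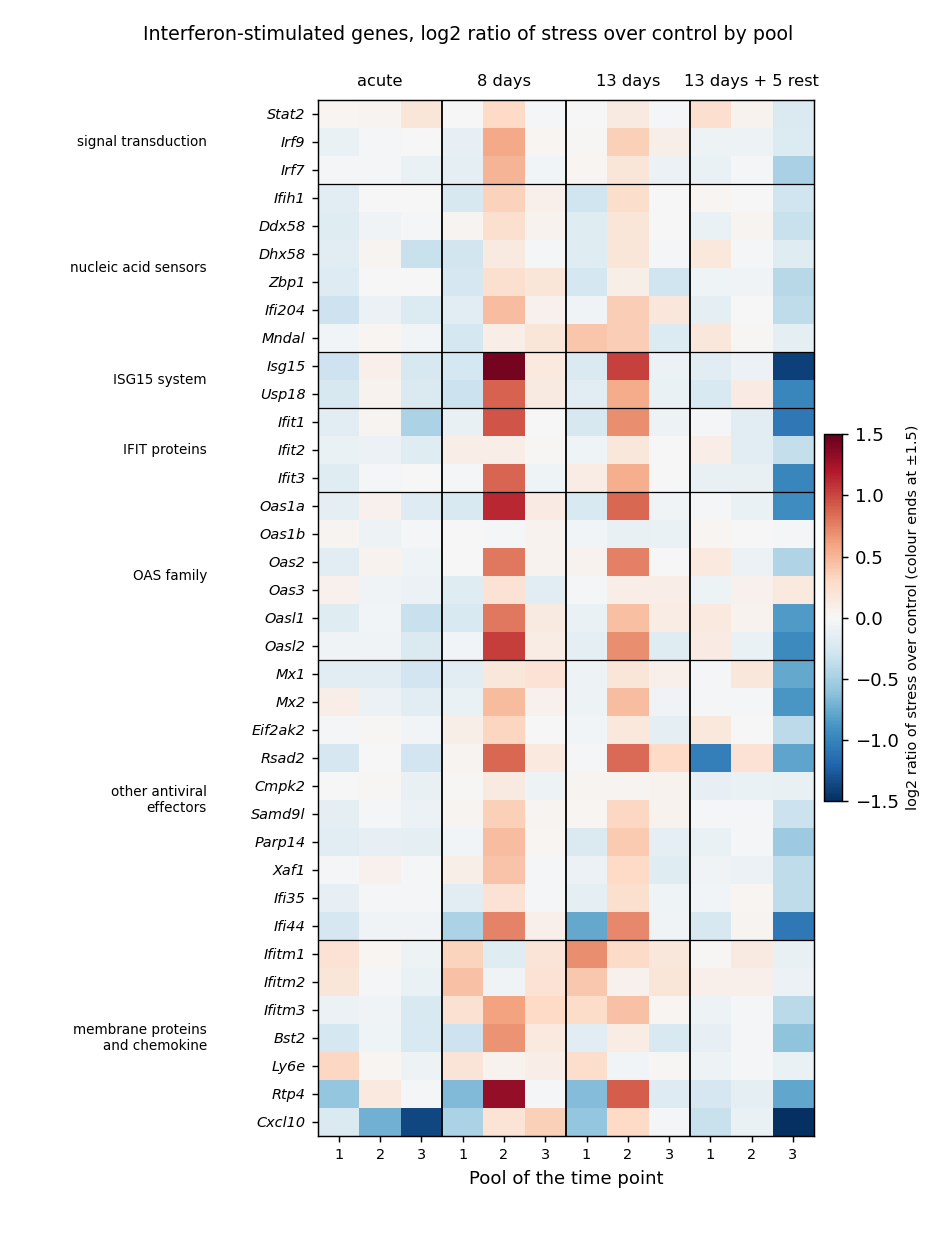
Log2 ratio of stress over control (colour, red for higher in stress) of the 37 members (rows, by role) in the 12 pairs of pools (columns, by time point). The columns of pool 2 of 8 days and 13 days are mostly red and that of pool 3 of recovery mostly blue. Oas1b and Cmpk2, shown by their brightest probes, are pale throughout.

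Many members had the same pairs of pools at the ends of their order over the 12 pairs. The 3 pairs looked at were picked from these same values, so the counts are a description. For 23 of 37 the 2 highest pairs were the pools 2 of 8 and 13 days, against 1.94% of all genes, and for 29 of 37 pool 3 of recovery was the lowest (7.8%). The 21 members over 0.2 in both pools 2, against 0.774% of all genes, were also under -0.2 in pool 3 of recovery, a pattern of 0.226% of all genes. Stat2, Irf7, Ddx58, Zbp1, Ifit2, Eif2ak2, Bst2, Ly6e and the dim Mx1 had their lowest ratio in pool 3 of recovery without passing 0.2 in both pools 2. Dhx58, Mndal, Cmpk2, Oas1b, Ifitm1, Ifitm2 and the dim Oas3 did neither. Of the 62 genes with this pattern, 21 were members, 5 were the whole red cell list (haemoglobin genes and Alas2) and 4 were of the neutrophil list. The largest of these were S100a9 (1.12, 1.01 and -2.42 in the 3 pairs) and Hbb-b1 (1.09, 1.91 and -0.40). Other genes outside the set with it included Ifi27l2a (2.21, 1.20 and -0.65 in the 3 pairs), Gm9706 (0.95, 0.62 and -1.09), Oas1f (0.96, 0.66 and -0.72), Lgals3bp (0.98, 0.42 and -0.30) and Rnf213 (0.65, 0.43 and -0.59).

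Members with and without a promoter match both followed the pattern of these pools. In pool 2 of 8 days the median was 0.35 over the 15 members with a match, of which 13 lay above 0.2, and 0.43 over the 11 without, of which 8 did. In pool 3 of recovery the medians were -0.40 and -0.38, with 12 of 15 and 9 of 11 members under -0.2. These are descriptions of the window searched.

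Genes of blood cells also differed between stress and control in some of the same pools. The red cell list (Alas2, Hba-a2, Hba-a1, Hbb-b2 and Hbb-b1, all well above background) had medians of 0.60, 0.93 and 0.66 in pools 1 to 3 after 8 days, 1.29, 1.56 and 1.16 after 13 days, where 5 of 5 were called, and 0.54, 0.65 and -0.41 in recovery. Red cell genes were thus also high in pools 1 and 3 of 8 and 13 days, where the members had medians between -0.11 and 0.06. In control pool 3 of recovery the red cell list stood 0.088 above the median of its dye, with genes from -0.052 to 0.18, while the members stood at 0.33. The neutrophil list (S100a8, S100a9, Ngp, Camp and Ltf, of which 3 to 5 were well above background on all arrays of a time point) had medians of -0.37, 0.44 and -0.63 after 8 days, -0.16, 0.39 and -0.12 after 13 days, and 0.77, 1.37 and -0.73 in recovery, so that it was high in both pools 2 and low in pool 3 of recovery like the members. Its highest pool, control pool 1 of acute stress, stood 2.84 above the median of its dye, and the members there stood at 0.049. In pool 3 of recovery the neutrophil list was at -0.45 in the stress pool and 0.44 in the control pool. The part of blood cells in the members' ratios was not tested.

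Lists of other cell types had medians of their own in the 3 pairs. In pool 2 of 8 days, pool 2 of 13 days and pool 3 of recovery the microglia list (8 genes) had medians of -0.019, -0.067 and -0.13, the endothelium list (7 genes) 0.084, 0.041 and 0.025, the lymphocyte list (6 genes) -0.013, -0.066 and -0.016, and the monocyte and macrophage list (6 genes) -0.019, 0.047 and 0.012. Single endothelium genes ran from -0.30 to 0.39 in pool 2 of 8 days. The astrocyte list (4 genes) had medians of -0.15, -0.28 and 0.16 in the same pairs, with genes from -0.47 to -0.052 in pool 2 of 8 days, from -0.43 to -0.028 in pool 2 of 13 days and from 0.017 to 0.18 in pool 3 of recovery, on the other side of 0 from the members' medians. The meningeal fibroblast list (6 genes) had -0.14, -0.11 and 0.047. Their part in the members' ratios was not tested.

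No gene upstream of the members was called in the fit of the 12 pairs. Of 42 listed ligands, receptors, kinases, factors, sensors, adaptors and inhibitors of the interferon pathway, 40 had a probe, and 0 were called at any time point, in either direction. Their median ratio lay between 0.0021 and 0.032 at the 4 time points. The receptor subunits Ifnar1 and Ifnar2 had mean ratios between -0.038 and 0.11. Ifnb1, the gene of interferon beta, was dim on all arrays but 1, and Ifng and Ifna4 were dim on all. Ifngr2, a subunit of the interferon gamma receptor, had 0.20, 0.13 and 0.20 after 13 days (mean 0.18, SE 0.039, adjusted p = 0.212). In limma fits over the arrays its adjusted p was 0.0267 with a slide block and 0.0245 with a dye effect. Its ratio there was 0.17, under the size limit for a call, and both fits took the arrays of a pool as independent. Trim25, the ubiquitin ligase that activates Ddx58, had 0.56 to 0.65 in pool 1 but -0.12 to 0.045 in pools 2 and 3 over the 4 time points. It was called at all 4 with the original arrays only, at 0.56 to 0.63. In these arrays stress is always in Cy5, so that stress and dye cannot be told apart.

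No member passed in the 6 limma contrasts between time points, with lowest adjusted p from 0.684 to 1.00. The percentage of all probes called was 0.0152 for 13 days against acute stress, 0.00254 for 8 days and for recovery against acute stress, and 0 in the other 3. At an unadjusted p under 0.05 the contrast of recovery with 8 days had 12 of 37 members (2.47% of all genes) and that of recovery with 13 days 7 (5.24%), with median differences of -0.29 and -0.25. The contrast of 8 days with acute stress had 2 (3.63%) and that of 13 days with acute stress 3 (6.24%), with median differences of 0.20 and 0.17. The contrasts of recovery with acute stress (5.37%) and of 13 with 8 days (2.4%) had 0. With slides as blocks in the array-level fit, 5 differences passed. For Ifitm3 they were between 8 days and both acute stress (0.54) and recovery (-0.59 for recovery minus 8 days). For Rsad2 they were between 13 days and acute stress (0.63) and between recovery and both 8 days (-0.84) and 13 days (-0.89). That fit took the arrays of a pool as independent, so that a dye swap counted as a replicate. The share of all probes passing in it was not computed.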

How the data were processed

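The series holds 20 dual-colour Agilent arrays of mouse frontal pole RNA, on 5 slides scanned on 2 days. The paper describes more arrays and slides, with a dye swap for each original array. The authors deposited, for each array, spot intensities and background per channel with a log10 ratio from Feature Extraction 10.10.1.1. Their deposited value table holds log2 ratios after normexp, loess and Aquantile in limma, and the normexp offset is not given in the sources used here. Here limma 3.58.1 (R 4.3.3) was run on the intensities with normexp (offset 50), loess and Aquantile, leaving out outlier spots (0.314% to 0.73% of an array). Spots with a local background over 10 times the array's median (2 to 25 spots on 9 arrays, 0 of them of members) were also left out, a choice made after seeing the data. Replicate spots were averaged (43020 spots, 39429 probes), dye swaps were turned to stress over control and averaged with their original array, and the 12 pairs of pools were fitted with 1 coefficient per time point. The brightest probe of a gene was used. The script was tested on simulated data. Single-colour levels were read from the same normalized channels. The p-values measure the spread between pools, each of other mice. The deposited table, other offsets, background and normalization settings, slide and dye terms, the mean over a gene's probes, filters on dim probes and leaving out pools were tried as alternatives. Background limits and the use of swapped arrays alone were added as alternatives after seeing the data.

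Values in every pool are given for members in 1 direction in 3 of 3 pools with a mean over 0.2 in size, for the 5 largest and 5 smallest means of a time point, for Mndal and Ifih1, which the study names, and for members whose probes differ in sign. Some of the other members are also given in full. The members, lists and rules were chosen with earlier results of these data known. Single genes of the pathway and marker lists that are not named are not reported here.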

Additional observations from a re-analysis of the deposited data

Results flagged for a closer look

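Some members lay on one side of 0 in all 3 pools at one time point and on the other side in all 3 pools at another. Between 8 days and acute stress the differences in log2 ratio were 0.50 for Ifitm3, 0.53 for Rsad2, 0.23 for Samd9l, 0.20 for Ddx58 (0.203) and 0.20 for Ifit2 (0.197), and 2.36% of all genes had such a switch. Between 13 days and acute stress they were 0.37 for Ifitm3, 0.29 for Ifit3, 0.22 for Samd9l and 0.20 for Irf9 (0.198), against 4.27% of all genes. Between recovery and 8 days they were -0.54 for Ifitm3, -0.26 for Samd9l and -0.18 for Ly6e (1.7% of all genes). Between recovery and 13 days they were -0.62 for Ifit3, -0.41 for Ifitm3, -0.28 for Irf9, -0.25 for Samd9l and -0.15 for Cmpk2 (3.41% of all genes). Each difference was tested in the limma fit and none passed, with adjusted p between 0.684 and 1. By their brightest probes, Samd9l and Ifitm3 switched in all 4 of these comparisons. A second Samd9l probe, also well above background on all arrays, showed none of these switches. It had -0.17, 0.0048 and 0.036 after acute stress, -0.17, 0.35 and -0.040 after 13 days, and 0.15, 0.016 and -0.33 in recovery. The other probes of Ddx58 and Cmpk2 did not show the switches given for these genes.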

How the results depend on the processing

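The original arrays all have stress in Cy5, so that with these alone stress and dye cannot be told apart. In that setting 1 member was called after 13 days (Ifitm1), and 4 calls were made among the pathway genes, all of Trim25. With the slide as a block over 20 arrays, 5 differences between time points passed. The estimated correlation of arrays of a pool was -0.0555, so that a dye swap counted as a replicate. The share of all probes passing was computed in neither setting. Members in 1 direction in 3 of 3 pools numbered 11 of 37 after acute stress and 9 in recovery under median centring, and 3 after 8 days in the authors' value table. The shares of all genes in these settings were not computed. In the main setting 14.8% of all genes were higher in 3 of 3 pools and 14.2% lower after acute stress. These shares were 12.1% and 11.3% in recovery, and 11.7% and 10.9% after 8 days. The direction counts were not computed without single pools or in the fits over arrays. Isg15 after acute stress turned to 0.021 under median centring. Ifih1 after 13 days turned to 0.048 under median centring, 0.049 with the slide block and 0.063 with a dye effect.

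Leaving out pools gave medians of the members from -0.11 to -0.058 after acute stress, -0.039 to 0.23 after 8 days, -0.067 to 0.13 after 13 days and -0.24 to -0.046 in recovery, with 0 calls throughout. Isg15 ran from -0.056 to 0.79 after 8 days and from -0.15 to 0.47 after 13 days, and Ifih1 from -0.15 to 0.13 after 13 days. With the pool number as a replicate block, 0 members were called, and the lowest adjusted p was 0.314, 0.0985, 0.097 and 0.439 at the 4 time points. Pools of the same number held different mice but shared slides, and their deviations correlated between -0.086 and 0.48, over 0.1 in 13 of 18 pairs of time points. Over all genes, those of the pools 2 of 8 and 13 days correlated at 0.45. Pool 2 of acute stress correlated with these at 0.27 and 0.25, and pool 2 of recovery at -0.0021 and 0.070. The alternatives that left out no pool kept the direction of each median, and those not named here kept the calls. The 3 pools per time point limit what can be detected.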

Other observations

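Genes outside the set with the same pattern, above 0.2 in the pools 2 of 8 and 13 days and under -0.2 in pool 3 of recovery, included GTPases known from the response to interferon gamma. Tgtp2 had 0.53, 1.1 and -0.92 in the 3 pairs, Gbp3 0.65, 0.81 and -0.60, Igtp 0.29, 0.51 and -0.86, Ifi47 0.36, 0.59 and -0.65, and Irgm2 0.46, 0.56 and -0.55. In the other 9 pairs their ratios reached, in size, 2.30 for Tgtp2, 1.45 for Gbp3, 1.77 for Igtp, 1.35 for Ifi47 and 1.16 for Irgm2. Those of the members with the pattern reached 1.37 for Cxcl10, 1.02 for Rsad2, 0.77 for Ifi44, 0.66 for Rtp4 and 0.31 for Isg15. The pattern was chosen after the values were seen, and these values are a description.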
